A study of Mus musculus with 16 samples.

Results

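The noncoding transcripts described here are Malat1, Neat1, Gm42418, CT010467.1 and Gm26917, 5 of the 46078 genes in the count table, in haematopoietic stem cells (HSCs) of mouse bone marrow (BM). They were found in the table by the identifiers that the GENCODE M21 annotation pairs with these symbols. Malat1 and Neat1 are nuclear long noncoding RNAs, and Gm42418, CT010467.1 and Gm26917 lie next to or over each other at a copy of ribosomal RNA (rRNA) on chromosome 17. CT010467.1 was chosen by its difference between the genotypes in central HSCs, where Gm26917 also passed the threshold. The calls and values of all 5 in that comparison are therefore a description and no evidence of a difference. The samples were pools of 30 LSK CD48-CD150+ cells sorted from tibia, femur and humeri of C57/Bl6 mice that had received no treatment, and libraries were made by Smart-seq2 with added spike-in RNAs. Endosteal HSCs came from the bone fraction and central HSCs from the marrow fraction, each from WT mice and from Gfra2-/- mice, which lack the receptor GFRα2 in all their cells and hence also in the cells around the HSCs. The 15 libraries used were 4 endosteal and 4 central WT libraries, 4 endosteal libraries labelled Gfra2-/- and 3 central libraries labelled Gfra2-/-, lettered within each group in the order of the table. The age of the mice is not given in the sample labels, which say that libraries of 4 replicates per sample were pooled. The study describes the replicates as biological, and the labels do not name the mouse behind each library, so p-values measure the spread between these libraries.

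Malat1 is one of the most abundant nuclear RNAs and gathers in nuclear speckles, where splicing factors are stored. Neat1 is the scaffold of paraspeckles, nuclear bodies that hold RNA-binding proteins. Cytosolic rRNA is made by RNA polymerase I in the nucleolus as one long precursor, in which transcribed spacers flank the mature rRNAs, and it normally carries no poly(A) tail, whereas Smart-seq2 starts from a primer that pairs with runs of A.

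The rRNA copy lies on chromosome 17 of GRCm38. Gm26917 (ENSMUSG00000097971), annotated as a lincRNA with 3329 exonic bases, lies on the plus strand from 39843013 to 39846341. After a gap of 11 bases follows CT010467.1 (ENSMUSG00000106106), annotated as rRNA on the minus strand from 39846353 to 39848827, with 2466 exonic bases. Gm42418 (ENSMUSG00000098178), a lincRNA of 1831 exonic bases on the plus strand from 39846958 to 39848788, lies wholly inside the span of CT010467.1. RefSeq lists the pseudogene Rn18s-rs5, with Gm42418 among its synonyms, over 1849 bases from 39846354 to 39848202 of GRCm38.p6. The annotation leaves 644 exonic bases to CT010467.1 alone and 9 to Gm42418 alone, and AY036118, a lincRNA nested in both, was listed at 0 counts in every library. Reads were counted without regard to strand and a read that overlaps several genes goes to none of them. The counts of CT010467.1 and Gm42418 therefore cannot be assigned to a strand, and by these gene models those of CT010467.1 come from a short stretch. The 9 bases of Gm42418 are fewer than a read holds, so which bases its counts come from is not known. The authors used an earlier annotation release, in which these stretches can differ.

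**Figure D1:**
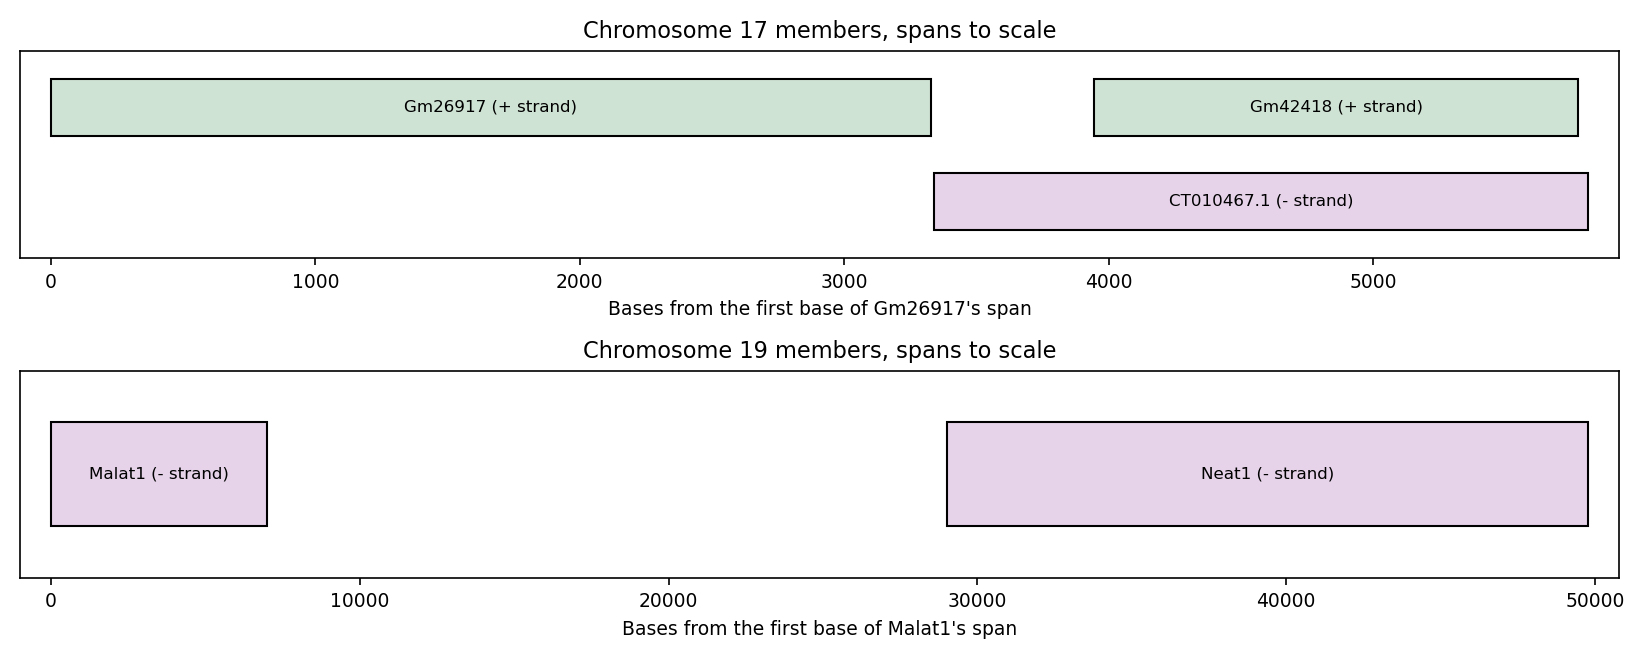
Spans of the 5 genes, to scale, as bases from the first base of Gm26917 (top) or of Malat1 (bottom), with green for the plus and purple for the minus strand. Gm42418 lies inside the span of CT010467.1 on the other strand, Gm26917 ends 11 bases before that span, and Malat1 and Neat1 lie apart on the same strand.

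The sequences below show how these gene models divide one ribosomal stretch. The first is the plus-strand end of Gm26917 (chr17:39846262-39846341), and the second the plus strand of CT010467.1 from its first base (chr17:39846353-39846432), which reads as the start of mature 18S rRNA. The third crosses the start of Gm42418 inside CT010467.1 (chr17:39846918-39847037), with capitals for bases that belong to both genes. The fourth crosses the other end of the shared stretch (chr17:39848122-39848261), where the mature 18S rRNA ends, with capitals for bases of both transcripts and lower case for the spacer that follows in Gm42418. All 4 are given 5′ to 3′ on the plus strand of GRCm38, from 1 GENCODE transcript per gene, which for CT010467.1 is the one that ends at 39848201.
Gm26917 end: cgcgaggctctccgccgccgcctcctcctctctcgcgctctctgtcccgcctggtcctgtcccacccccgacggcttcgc
CT010467.1 start of the span: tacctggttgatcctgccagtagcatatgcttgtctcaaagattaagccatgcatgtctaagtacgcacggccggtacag
CT010467.1 into Gm42418: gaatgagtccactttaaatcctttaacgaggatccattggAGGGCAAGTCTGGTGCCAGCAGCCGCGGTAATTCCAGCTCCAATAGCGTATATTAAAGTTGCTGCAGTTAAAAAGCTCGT
Gm42418 end of the shared stretch: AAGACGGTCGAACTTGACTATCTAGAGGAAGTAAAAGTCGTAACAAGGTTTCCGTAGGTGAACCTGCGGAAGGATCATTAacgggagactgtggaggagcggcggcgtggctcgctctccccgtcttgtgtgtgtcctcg
On the plus strand, 605 bases of CT010467.1 precede Gm42418, and the next 1244 bases of CT010467.1 are identical to the first of Gm42418. Of the stretches of 30 bases in Gm42418, 96.4% also occur in a transcript of another gene on either strand, all of them in CT010467.1 or AY036118, against 66.8% for CT010467.1 and 0% for Gm26917. The GC content was 69.1% in Gm26917, 55.4% in CT010467.1 and 60.2% in Gm42418. The longest run of A had 4 bases in Gm26917 and in CT010467.1, and 6 in Gm42418. The aligner was run so that a read with several equal placements in the genome is not reported as aligned, and copies of rRNA outside the annotated transcripts were not searched here.

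Malat1 (ENSMUSG00000092341) lies on the minus strand of chromosome 19 from 5795690 to 5802672, with 6983 exonic bases, and Neat1 (ENSMUSG00000092274) on the same strand from 5824708 to 5845478, with 20771 exonic bases. They are 22035 bases apart. Malat1 and the long form of Neat1 do not end in a common poly(A) tail: RNase P cuts both just ahead of a small RNA that looks like a tRNA, and the new end folds into a triple helix. The sequences show this shared ending, Malat1 from position 6604 (chr19:5795929-5796069) with its longest run of A in capitals, and the last 120 bases of Neat1 (chr19:5824708-5824827) with capitals for the stretch that Malat1 also holds there, both 5′ to 3′ on the minus strand of GRCm38.
Malat1: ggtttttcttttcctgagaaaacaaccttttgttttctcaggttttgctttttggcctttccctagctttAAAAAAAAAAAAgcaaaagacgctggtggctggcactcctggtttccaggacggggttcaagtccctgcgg
Neat1: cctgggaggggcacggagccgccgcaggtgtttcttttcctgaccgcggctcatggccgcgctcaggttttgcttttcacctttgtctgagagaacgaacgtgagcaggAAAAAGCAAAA
The run of 12 A in Malat1 begins at position 6674 of 6983, and 4.07% of the 141767 annotated transcripts hold a run as long, while the longest run in Neat1 has 7 A. The stretch AAAAAGCAAAA, which ends Neat1, stands at position 6681 of Malat1, searched on the transcript strand only. It occurs in the last 500 bases of 0.136% of the 111422 transcripts of at least 500 bases. The GC content was 42.5% in Malat1 and 47.3% in Neat1. Genes annotated inside Malat1 (Gm27694 and Gm37376) or Neat1 (Gm27533, Gm27505 and Gm28006) were listed at 0 counts in all libraries.

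The depth, as reads counted on genes, was 826487 to 18550008, and each central WT library, with at most 3367289, was shallower than each of the other libraries. Reads that did not align made up 40.7% to 65.6% in central WT libraries and 20.1% to 38.3% in all others. Spike-ins took under 0.5% of the reads counted on genes and spike-ins in 4 libraries, 1 of each group (endosteal WT D, central WT D, endosteal Gfra2-/- D and central Gfra2-/- C), and more in the other 11. Gfra2 had at most 4 counts in any WT library, and 2, 47, 1 and 9 counts in endosteal libraries A to D labelled Gfra2-/-. The central ones of this label had 0, 1 and 0 counts. The WT library with 4 counts, central C, was the shallowest, at 826487 reads, against 18550008 in endosteal Gfra2-/- library B. The deposited labels do not say which part of the gene was deleted, so whether B and D go against their label cannot be told. All 12 HSC markers had counts in each group, with summed levels of 2273 to 4470 CPM, counts scaled to a common library total with edgeR's TMM normalization. Of markers of other cells, the 10 myeloid genes summed to 544 to 3417 CPM in central WT libraries (7 of 10 with counts, Mpo, Elane and Ctsg at 0) and to 541 to 996 CPM in endosteal WT libraries (9 of 10 with counts). Endothelial (305 against 91.3 CPM at most), B lymphoid (295 against 98.9), T lymphoid (2.68 against 1.22) and markers that the sort excludes (102 against 14.6) also reached higher in central WT. Erythroid (85.5 against 112), stromal (15.5 against 52.6) and megakaryocyte markers (513 against 578, with medians of 332 against 322) reached less high. In central libraries labelled Gfra2-/- the highest of these sums was 1632 CPM, of the myeloid genes. In bulk pools, fewer cells that hold an RNA and less RNA per cell cannot be told apart.

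The 5 genes together held 3.45% to 12.4% of the reads counted on genes in a library, and the 3 on chromosome 17 held 3.24% to 12.1%. CT010467.1 ranked between first and the 5th place among all genes in every library, with 1.25% to 10.2% of the reads, and Gm26917 between first and the 3rd place, with 1.32% to 5.81%. Malat1 ranked from 9 to 25 with 0.209% to 0.417% of the reads, Gm42418 from 8 to 2579 with 0.00992% to 0.588%, and Neat1 from 134 to 2867 with 0.00933% to 0.0511%. Per kilobase of exon, the mean level over the 15 libraries was 17597 CPM per kilobase for CT010467.1, 9377 for Gm26917, 754 for Gm42418, 447 for Malat1 and 11.7 for Neat1. In these gene models most exonic bases of CT010467.1 and Gm42418 overlap each other, so for both this scale can understate the level of the stretches that were counted.

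**Figure D2:**
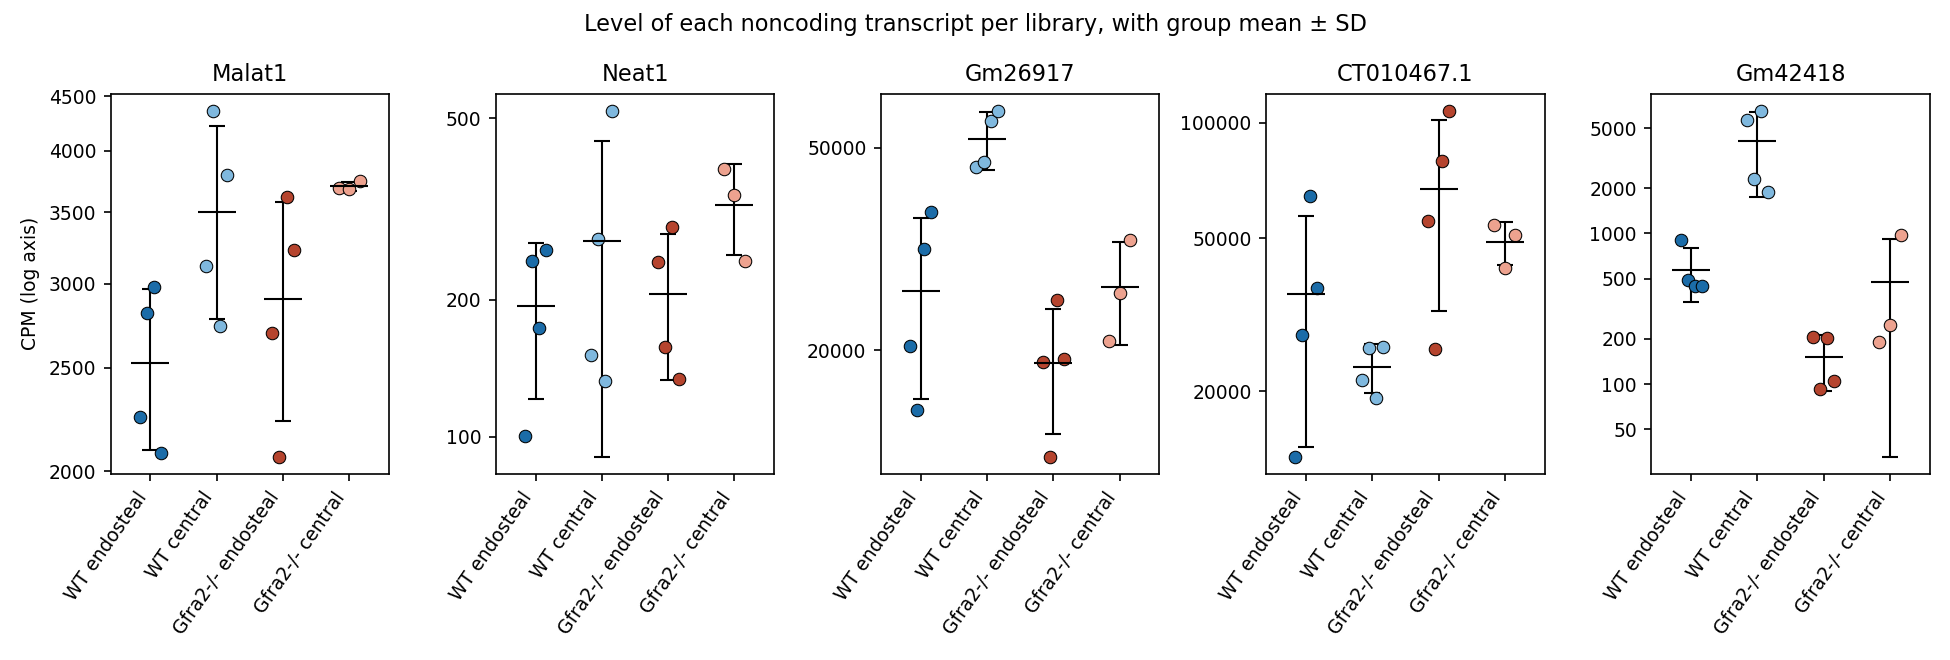
Level of each transcript in CPM on log axes, 1 point per library, with the group mean and SD as a bar with whiskers. Gm42418 in central WT libraries, at 1885 to 6519 CPM, sits above all other libraries, and Malat1 varies least over all libraries.

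Malat1 varied 2.11-fold over all libraries on the CPM scale, the least of the 5. Endosteal WT libraries A to D had 2246, 2816, 2977 and 2079 CPM, and central WT libraries 3119, 4360, 2735 and 3794 CPM. The highest endosteal libraries reached into the range of the central ones. Endosteal libraries labelled Gfra2-/- had 2697, 2064, 3620 and 3227 CPM, and the 3 central ones 3689, 3679 and 3744 CPM. In libraries of this label, all central ones lay above all endosteal ones, and the central ones lay close together. The means were 3704 ± 35.1 (SD, n = 3) in central and 2902 ± 675 CPM (SD, n = 4) in endosteal libraries labelled Gfra2-/-, and 3502 ± 720 (SD, n = 4) in central and 2529 ± 434 CPM (SD, n = 4) in endosteal WT libraries. In descending order the groups were central Gfra2-/-, central WT, endosteal Gfra2-/- and endosteal WT, and each group overlapped its neighbour in this order.

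Neat1 had the lowest single count of the 5 transcripts, 99 in central WT library C, reached 5906 and varied 5.18-fold in CPM. In some libraries labelled Gfra2-/- Gm42418 had fewer counts, such as 1845 against 3116 in endosteal library B. Those 99 reads were 0.0120% of the reads counted on genes (95% Wilson interval 0.00984% to 0.0146%). The interval covers counting error only, because reads copied by PCR and not tagged by molecule are not independent. Endosteal WT libraries A to D had 100.4, 243, 173 and 257 CPM, and central WT libraries had 151, 271, 133 and 519.7 CPM. Both WT groups covered much of the same range, and central library D stood highest. Endosteal libraries labelled Gfra2-/- had 242, 157, 289 and 134 CPM, and the central ones 387, 339 and 244 CPM. The central group had the highest mean, 323 ± 73.0 CPM (SD, n = 3), yet its library C lay below endosteal library C. The other means were 269 ± 178 in central WT, 206 ± 72.7 in endosteal Gfra2-/- and 194 ± 72.2 CPM in endosteal WT libraries (SD, n = 4 each), and neighbours in this order overlapped.

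Gm26917, the spacer-side neighbour of the 18S stretch, was highest in central WT HSCs. Central WT libraries A to D had 45778, 46845, 56461 and 59155 CPM, and endosteal WT libraries 20403, 15241, 31679 and 37400.1 CPM. Every central WT library lay above every endosteal one. Endosteal libraries labelled Gfra2-/- had 18933.5, 12339, 25091 and 19171 CPM, and the central ones had 20855.5, 25910.1 and 32967 CPM. All libraries of this label thus lay below all central WT libraries, and they overlapped the endosteal WT range. The group means were 52059.9 ± 6742 in central WT (SD, n = 4), 26578 ± 6083 in central Gfra2-/- (SD, n = 3), 26181 ± 10152 in endosteal WT and 18884 ± 5211 CPM in endosteal Gfra2-/- libraries (SD, n = 4 each), and only the first of these groups did not overlap its neighbour in this order.

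CT010467.1, the rRNA gene that covers the 18S stretch, had its lowest mean in central WT HSCs and its highest in endosteal libraries labelled Gfra2-/-. Endosteal libraries A to D labelled Gfra2-/- had 55334, 25785, 79574.5 and 107447 CPM, and the central ones 54076, 41961 and 50959.6 CPM. Endosteal WT libraries A to D had 13505, 28020.1, 64453 and 37166 CPM, and central WT libraries 21367, 25922, 19209.6 and 26131 CPM. The 4 central WT libraries lay close together and below all central libraries labelled Gfra2-/-, while both endosteal groups were spread over wide ranges that overlapped. The means were 67035 ± 34779.6 in endosteal Gfra2-/- (SD, n = 4), 48999 ± 6291 in central Gfra2-/- (SD, n = 3), 35786 ± 21451 in endosteal WT and 23158 ± 3429 CPM in central WT libraries (SD, n = 4 each), and each group overlapped its neighbour in this order.

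Gm42418 varied most, 69.998-fold in CPM over all libraries. Central WT libraries A to D had 5669, 2301, 6519 and 1885 CPM, and endosteal WT libraries 911, 494, 446 and 447 CPM. Every central WT library lay above every other library, with endosteal WT library A apart from the other three of its group. Endosteal libraries labelled Gfra2-/- had 206, 93.1, 201.115 and 104 CPM, and the central ones 192, 248 and 983 CPM. All endosteal libraries of this label lay below all endosteal WT libraries, and central library C stood well above A and B. The group means were 4094 ± 2342 in central WT, 574 ± 225 in endosteal WT and 151 ± 60.7 in endosteal Gfra2-/- (SD, n = 4 each), and 474 ± 441 CPM in central Gfra2-/- libraries (SD, n = 3).

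The comparison of endosteal with central WT HSCs asked how the compartments differ. It uses the 4 central WT libraries on which CT010467.1 was also chosen. With edgeR's quasi-likelihood test and a false discovery rate (FDR, Benjamini-Hochberg) of 0.1 over all 11181 genes tested, 0% of the genes and 0 of the 5 transcripts passed, with 882 genes and 3 of the 5 at an unadjusted p under 0.05. DESeq2 called 1.86% of the genes and 2 of the 5. Gm42418 had the smallest p of all genes, a log2 fold change of -2.85 (SE 0.41, FDR = 0.117 from edgeR; FDR = 4.15e-07 from DESeq2), which is 7.22-fold lower in endosteal HSCs. Gm26917 had a log2 fold change of -1.01 (SE 0.23, FDR = 0.302 from edgeR; FDR = 0.0736 from DESeq2). The groups did not overlap in CPM for these 2 of the 5, against 6.36% of all genes tested. The log2 fold changes were 0.61 for CT010467.1 (SE 0.33), -0.49 for Malat1 (SE 0.20) and -0.50 for Neat1 (SE 0.47), with FDRs of 0.669, 0.586 and 0.822 from edgeR. With scaling to the spike-ins, which moved the median of all genes to 1.58, Gm26917 (0.68), Malat1 (0.75) and Neat1 (0.49) had the other direction, and Gm42418 had -0.84. Within the libraries with more spike-in the difference in mean log2 CPM of Gm42418 was -2.91, and between the 2 libraries with fewer it was -2.07. Its FDR crossed the threshold when 1 of 3 libraries was left out, at 0.0312 without endosteal A, 0.0969 without central B and 0.0354 without central D from edgeR. Without any 1 of the other libraries the FDR rose, to between 0.346 and 0.531. In libraries over 1500000 reads, which leave out central A and C, the log2 fold change was -1.88 (SE 0.32, FDR = 0.642 from edgeR).

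The same compartments were compared in libraries labelled Gfra2-/-, and 0% of 13860 genes and 0 of the 5 transcripts passed with edgeR, with 664 genes and 1 of the 5 (Gm42418) at an unadjusted p under 0.05. DESeq2 called 1.13% of the genes and 0 of the 5. The 3 central libraries of this label also served to choose CT010467.1. Gm42418 had a log2 fold change of -1.65 (SE 0.58, FDR = 0.954), with overlapping groups, and without central library C it was -0.54. The difference of mean log2 CPM was -0.47 among libraries with more spike-in and -3.23 between the 2 with fewer. Malat1 had a log2 fold change of -0.35 (SE 0.20, FDR = 0.999), and its groups did not overlap, 1 of the 5 transcripts against 7.34% of all genes tested. The values were -0.65 for Neat1 (SE 0.33), -0.49 for Gm26917 (SE 0.24) and 0.46 for CT010467.1 (SE 0.39), each at an FDR of 0.999 from edgeR. Without endosteal libraries B and D, which had the most Gfra2 counts, the log2 fold changes were -0.23 for Malat1, -0.28 for Neat1, -0.27 for Gm26917, 0.46 for CT010467.1 and -1.22 for Gm42418.

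In endosteal HSCs the genotypes were compared in libraries that had not served to choose CT010467.1. The members as a set were chosen with earlier results of these data known. With edgeR 0% of 12970 genes and 0 of the 5 transcripts passed, with 868 genes and 1 of the 5 (Gm42418) at an unadjusted p under 0.05. DESeq2 called 1.05% of the genes and 1 of the 5. Gm42418 was 3.79-fold lower in libraries labelled Gfra2-/-, a log2 fold change of -1.92 (SE 0.36, FDR = 0.392 from edgeR; FDR = 6.24e-04 from DESeq2), at rank 6 of all genes by p. Its groups did not overlap, 1 of the 5 against 6.24% of all genes tested. CT010467.1 had a log2 fold change of 0.91 (SE 0.48, FDR = 0.757), Gm26917 one of -0.46 (SE 0.29, FDR = 0.809), Malat1 one of 0.20 (SE 0.21, FDR = 0.895) and Neat1 one of 0.09 (SE 0.37, FDR = 0.981, all from edgeR). Without endosteal Gfra2-/- libraries B and D, Gm42418 had a log2 fold change of -1.50 (SE 0.37, FDR = 0.917 from edgeR), and the others had 0.91, -0.25, 0.31 and 0.45 in the same order. Summed markers of some other cells reached higher in endosteal libraries labelled Gfra2-/- than in endosteal WT libraries. They had 30.9 to 683 against 55.6 to 112 CPM for 9 erythroid genes (9 with counts in each group). For 6 B lymphoid genes it was 34.0 to 1046 against 18.9 to 98.9 CPM (5 against 4 with counts, Igll1 at 0 in both). Megakaryocyte (765 against 578 CPM at most) and endothelial genes (97.3 against 91.3) also reached higher. The 10 myeloid genes went the other way, with 478 to 700 against 541 to 996 CPM (8 against 9 with counts). Stromal (23.2 against 52.6 CPM at most) and T lymphoid genes (0.926 against 1.22) also reached less high. The medians went against the highest library for megakaryocyte (220 against 322 CPM), stromal (8.86 against 6.99) and T lymphoid genes (0.287 against 0.127). They went with it for erythroid (124 against 80.6), B lymphoid (67.4 against 52.6), endothelial (78.3 against 68.3) and myeloid genes (583 against 864). The 5 measured markers of cells that the sort excludes summed to 0.135 to 774 against 0.487 to 14.6 CPM (4 against 3 with counts, Cd3e at 0 in both). The medians of these sums were 6.58 against 8.18 CPM. Depletion of mature cells and the lineage-negative gate should remove such cells, and the part of these markers in the differences was not tested.

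Between the genotypes in the central compartment, edgeR called 6 of 11772 genes, 0.051%, among them CT010467.1 and Gm26917, and DESeq2 called 3.24% and 3 of the 5, Gm42418 being the third. This comparison chose CT010467.1, so the calls and values of the 5 in it are a description. Their p-values and FDRs are not given. The log2 fold change in libraries labelled Gfra2-/- was 1.06 (SE 0.13) for CT010467.1 and -0.99 (SE 0.16) for Gm26917, both inside the threshold, and -3.12 (SE 0.63) for Gm42418, the member nearest outside it with edgeR. Neither was called by edgeR without any one of the 4 central WT libraries or Gfra2-/- library A, and Gm26917 was not called without Gfra2-/- library B. With 1 library left out, the log2 fold change stayed between 0.97 and 1.14 for CT010467.1 and between -1.20 and -0.85 for Gm26917. Neither was called with all groups in one fit, at an FDR of 0.05, in libraries over 1500000 reads or with scaling to the spike-ins. Malat1 had 0.05 (SE 0.19) and Neat1 0.23 (SE 0.47). The groups did not overlap for the 3 transcripts of chromosome 17, and they did not for 12.4% of all genes tested. The difference of mean log2 CPM was 1.11 for CT010467.1 among libraries with more spike-in and 0.96 between the 2 with fewer, for Gm26917 it was -1.09 and -0.84, and for Gm42418 -4.33 and -0.94. With scaling to the spike-ins, which moved the median of all genes to 1.75, Gm26917 had a log2 fold change of 0.66 (SE 1.45), the other direction, while CT010467.1 had 2.59 (SE 1.49) and Gm42418 -0.08 (SE 1.54).

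Whether the compartment difference itself differed between the genotypes was asked with an interaction term fitted to the 15 libraries. These include the central libraries on which CT010467.1 was chosen. With edgeR 0% of 15416 genes and 0 of the 5 transcripts passed, with 1074 genes and 0 of the 5 at an unadjusted p under 0.05, and DESeq2 called 1.12% of the genes and 0 of the 5. The estimates, as endosteal minus central in libraries labelled Gfra2-/- less the same in WT, were 1.18 for Gm42418 (SE 0.73, FDR = 0.783), 0.50 for Gm26917 (SE 0.35, FDR = 0.806), 0.12 for Malat1 (SE 0.28, FDR = 0.973), -0.18 for CT010467.1 (SE 0.55, FDR = 0.980) and -0.18 for Neat1 (SE 0.62, FDR = 0.982, all from edgeR). The estimate for Gm42418 was 2.53 (SE 0.61, FDR = 0.602 from edgeR) in the libraries with more spike-in, 0.23 (SE 0.74) in those over 1500000 reads, and -2.05 (SE 1.81) with scaling to the spike-ins. It was 2.25 without central Gfra2-/- library C and 0.75 without A, the ends of the range with 1 library left out. A difference between the genotypes was not detectable at this number of libraries.

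**Figure D3:**
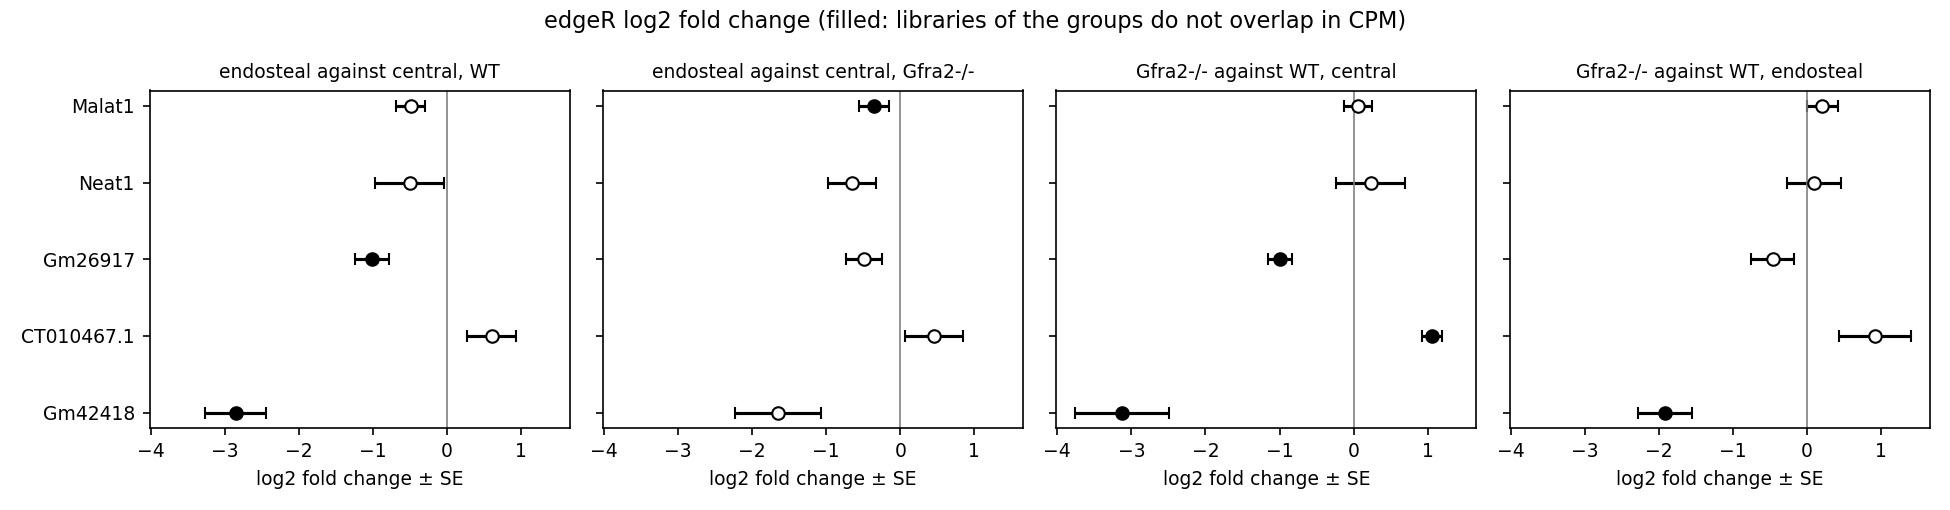
The log2 fold changes of the 5 transcripts from edgeR with their SE in the 4 comparisons, negative where the transcript was lower in endosteal HSCs (left pair) or in libraries labelled Gfra2-/- (right pair). Filled points mark groups that did not overlap in CPM. Gm42418 lies farthest from 0 in each comparison, and with this TMM scaling CT010467.1 lies on the other side of 0 from Gm26917 and Gm42418. With scaling to the spike-ins Gm26917 changed sides of 0 in the WT compartment and central genotype comparisons. That scaling moved the median of all genes to 1.58 and 1.75 there, and Gm26917 stayed below this median, at -0.90 and -1.09 relative to it.

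The neighbours on chromosome 17 did not keep a constant proportion, which can be read within a library and needs no scaling between libraries. Central WT libraries A to D had 0.467, 0.553, 0.340 and 0.442 reads of CT010467.1 per read of Gm26917, and endosteal WT libraries had 0.662, 1.84, 2.03 and 0.994. Endosteal libraries labelled Gfra2-/- had 2.92, 2.09, 3.17 and 5.60, and the central ones 2.59, 1.62 and 1.55. Gm26917 thus had more reads than CT010467.1 in all 4 central WT libraries and in 2 of the endosteal WT ones (A and D), and fewer in every library labelled Gfra2-/-. Between the central groups the ratios with CT010467.1 are a description, since it was chosen there and Gm26917 was called there too. Reads of CT010467.1 per read of Gm42418 ran from 2.95 to 13.9 in central WT, from 14.8 to 145 in endosteal WT, from 51.9 to 282 in central Gfra2-/- and from 269 to 1031 in endosteal Gfra2-/- libraries. The reads of Gm26917 per read of Gm42418 ran from 8.08 to 31.4, 22.4 to 83.7, 33.5 to 109 and 91.9 to 184 in the same order. On chromosome 19, the reads of Malat1 per read of Neat1 ran from 7.30 to 20.6 in central WT, from 8.08 to 22.4 in endosteal WT, from 9.53 to 15.4 in central Gfra2-/- and from 11.1 to 24.1 in endosteal Gfra2-/- libraries, so all groups overlapped there.

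**Figure D4:**
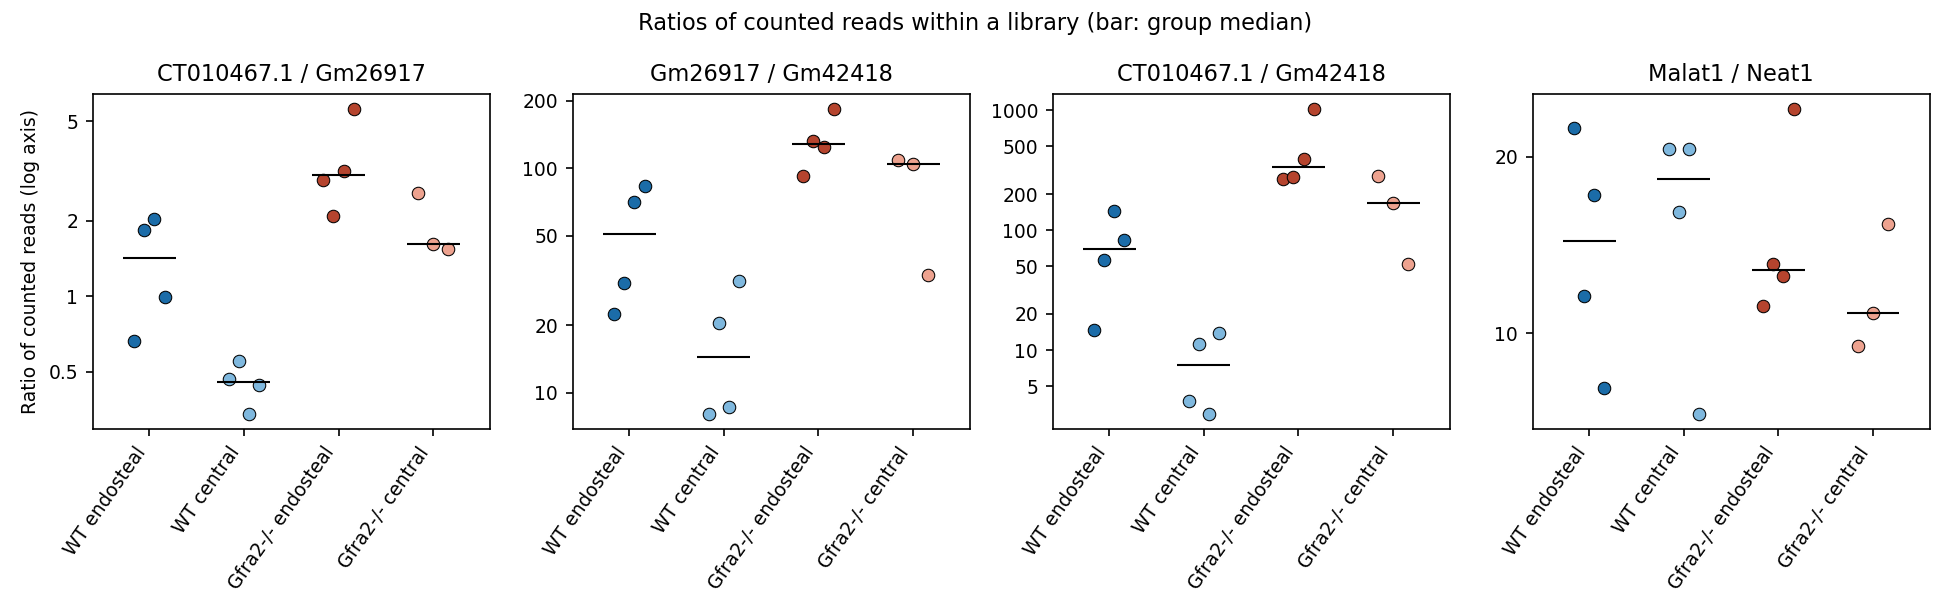
Ratios of counted reads between pairs of the transcripts, 1 point per library on log axes, with the group median as a bar. The ratio of CT010467.1 to Gm26917 is under 1 in all central WT libraries and above 1.5 in all libraries labelled Gfra2-/-, while the ratio of Malat1 to Neat1 overlaps between all groups. CT010467.1 was chosen by its difference between the central groups, so their ratios with it are a description.

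Gm42418 followed properties of the libraries closely. Its counts stayed between 1189 and 7653, a 6.44-fold range, in libraries whose depth spanned 826487 to 18550008 reads, whereas the counts of Malat1 varied 27.6-fold, of Neat1 59.7-fold, of Gm26917 10.9-fold and of CT010467.1 85.6-fold. Its log2 CPM had a Pearson correlation of -0.93 with the log2 depth and of 0.94 with the share of reads that did not align over the 15 libraries, and of -0.69 and 0.87 over the 11 libraries that are not central WT. These are descriptions: the points share groups, and depth enters the CPM. Gm26917 had correlations of -0.78 with depth and 0.80 with the share not aligned over the 15 libraries (-0.42 and 0.62 over the 11). It also followed the share of aligned reads that overlapped several genes, at 0.80 over the 15 and 0.87 over the 11. CT010467.1 went the other way, at 0.58 with depth and -0.54 with the share not aligned over the 15 (0.30 and -0.20 over the 11), and Malat1 and Neat1 had values between -0.21 and 0.23 with either over the 15. Between the members, r was 0.82 for Gm42418 with Gm26917, -0.65 for Gm42418 with CT010467.1, -0.27 for CT010467.1 with Gm26917 and 0.57 for Malat1 with Neat1 over the 15 libraries. The part of depth, of reads not aligned, and of the markers of other cells in the group differences of Gm42418 and Gm26917 was not tested. Depth and the central WT group cannot be told apart.

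**Figure D5:**
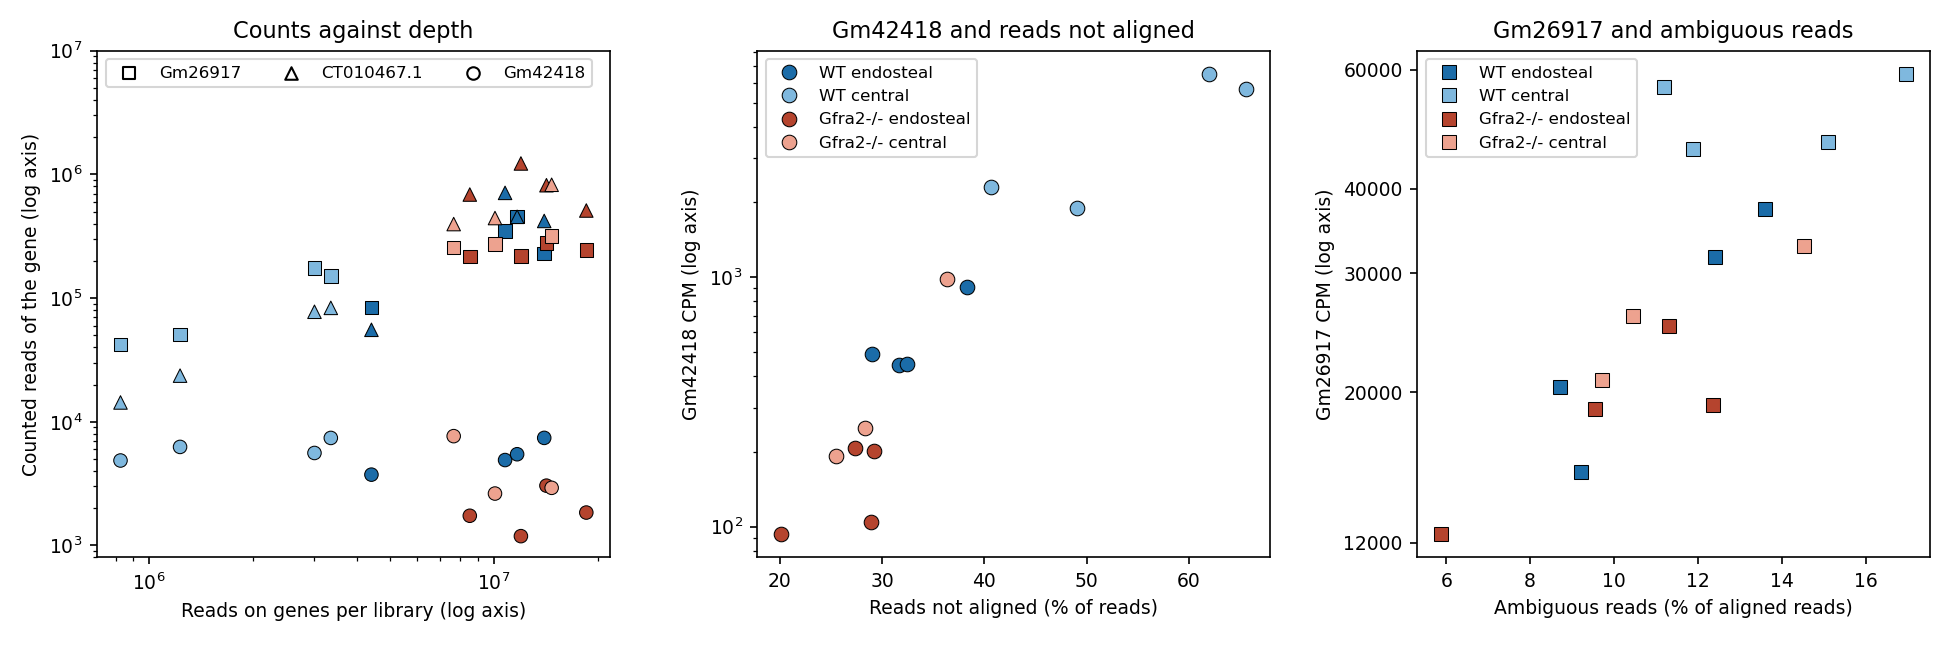
Counted reads of the 3 chromosome 17 genes against the reads counted on genes (left), Gm42418 in CPM against the share of reads not aligned (middle) and Gm26917 in CPM against the ambiguous share of aligned reads (right), 1 point per library, coloured by group. The counts of Gm42418 stay between 1189 and 7653 at every depth, and its CPM rise with the share of reads not aligned.

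The genes with the pattern most like each transcript over the 15 libraries, by Pearson r of log2(CPM + 1) among the other 15411 genes kept over all groups, are named as a description. For Gm42418 they were Gm23935, annotated as a miRNA gene on chromosome 16 (r = 0.98, 1.41 to 63.4 CPM), the processed pseudogene Rpsa-ps1 (r = 0.98) and Nrgn (r = 0.97). Gm23935 was also among the 3 for Gm26917 (r = 0.87), after Slc30a1 and Msra (r = 0.89 each). No stretch of 30 bases of Gm23935 occurs in any of the 5 transcripts. For CT010467.1 they included Zfp335 (r = 0.90) and the processed pseudogene Gm4875 (r = 0.88, at most 5.43 CPM). For Malat1 they were Cd200r1, Tbc1d23 and Tctn1 (r = 0.82, 0.80 and 0.79), and for Neat1 Trip10, Tmem110 and Selenom (r = 0.87, 0.85 and 0.84). With 15 libraries and so many genes, high values arise readily.

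Genes for proteins of the bodies in which Malat1 and Neat1 reside were measured as RNA in all libraries. Over all genes tested, 882 of 11181 had an unadjusted p under 0.05 between compartments in WT, 664 of 13860 between them in Gfra2-/-, 1028 of 11772 between genotypes in central HSCs, 868 of 12970 between them in endosteal HSCs and 1074 of 15416 in the interaction, and the counts of each list below stand beside these. Of 15 paraspeckle protein genes, 0 passed the FDR with edgeR in any of the 5 fits, and of 18 nuclear speckle protein genes, 0 did. The paraspeckle list had 1, 0, 3, 3 and 0 genes at an unadjusted p under 0.05 in the compartment comparison in WT, that in Gfra2-/-, the genotype comparison in central, that in endosteal HSCs and the interaction, and DESeq2 called 1, Sfpq, in central HSCs. The speckle list had 3, 1, 0, 3 and 0, and DESeq2 called 0. The median log2 fold change of the paraspeckle list was -0.27 between the compartments in WT, against 0.03 for all genes, and -0.42 between the genotypes in central HSCs, against 0.03. It was 0.10 and 0.04 in the remaining 2 comparisons, and the medians of the speckle list lay between -0.11 and 0.10 in the 4 comparisons. Hnrnpk (302 to 752 CPM) and Hnrnpm (288 to 861 CPM) were the most abundant of the first list, with log2 fold changes of -0.49 (SE 0.30) and 0.40 (SE 0.31) between the compartments in WT. Srrm2 and Srsf6 led the second, at -0.01 (SE 0.28) and -0.21 (SE 0.25). Of 12 genes for RNase P and RNase MRP subunits, the nuclease Elac2 and the Malat1-binding protein Mettl16, 11 were tested and 0 passed, with 0, 0, 0, 1 and 1 at an unadjusted p under 0.05 and 0 called by DESeq2. Pop7 and Rpp14 led this list, at mean levels of 50.7 and 48.4 CPM, and its medians in the 4 comparisons ran from -0.09 to 0.36.

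Among other noncoding RNA genes, 25 long noncoding RNAs were in the table, and 19 to 25 of them were tested. With edgeR 0 passed in any fit, and 4, 3, 6, 1 and 0 had an unadjusted p under 0.05 in the same order of fits, of 19, 24, 22, 21 and 25 tested. DESeq2 called Meg3, Snhg8 and Epb41l4aos between the compartments in WT, H19 between them in Gfra2-/-, and Gas5 and Snhg8 between the genotypes in central HSCs. In WT, 15 of 19 had lower values in endosteal HSCs, and the median over the 19 was -0.59 on the log2 scale against 0.03 for all genes. Gas5, a host gene of small nucleolar RNAs, had 508 to 1349 CPM and a log2 fold change of -0.62 (SE 0.26, FDR = 0.586) there, and -0.91 (SE 0.25, FDR = 0.318 from edgeR) between the genotypes in central HSCs. Kcnq1ot1, an imprinted antisense RNA, had 292 to 844 CPM and log2 fold changes of 0.24 (SE 0.32) and 0.60 (SE 0.31). Of 15 small structured RNA genes at most 2 were kept by the filter in any fit, Rn7sk, at 0.81 to 17.2 CPM, and Scarna13, at 0 to 3.63 CPM, and 0 passed or had an unadjusted p under 0.05 with edgeR, and DESeq2 called 0.

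Of the 355 other rRNA genes, 2 were tested in each comparison between groups, the mitochondrial rRNAs mt-Rnr1 and mt-Rnr2. Unlike cytosolic rRNA, these are made in mitochondria and receive short A tails. Mt-Rnr2 had 13374 to 46909 CPM, a level in the range of the chromosome 17 transcripts, and log2 fold changes of -0.63 (SE 0.14, FDR = 0.272) between the compartments in WT and -0.45 (SE 0.14, FDR = 0.366 from edgeR) between the genotypes in central HSCs. Mt-Rnr1 had 1384 to 6634 CPM and log2 fold changes of -0.60 (SE 0.30) and -0.44 (SE 0.25). Neither passed in any fit with edgeR or with DESeq2, and 1 gene of this list, mt-Rnr2, had an unadjusted p under 0.05 in each of these comparisons. Of 29 genes for RNA polymerase I and rRNA processing, 0 passed with edgeR, and 3, 6, 6, 1 and 1 had an unadjusted p under 0.05 in the 5 fits. DESeq2 called Taf1c, a polymerase I initiation factor subunit, and Dkc1, the pseudouridine synthase of the nucleolus, between the genotypes in central HSCs, and Taf1c in the interaction. The median of this list was -0.03, 0.29, -0.39 and 0.18 in the 4 comparisons, against 0.03 for all genes in each. Ncl, which encodes nucleolin, had 651 to 998 CPM and log2 fold changes of -0.14 (SE 0.22), 0.29 (SE 0.20), -0.40 (SE 0.23) and 0.03 (SE 0.19). Npm1, which encodes nucleophosmin, had 267 to 750 CPM and log2 fold changes of -0.21 (SE 0.24), -0.18 (SE 0.22), -0.80 (SE 0.26) and -0.76 (SE 0.21).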

How the data were processed

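The members and the gene lists were chosen with earlier results of these data known. The authors deposited 1 table of raw read counts per gene. Per the study's methods and the submitters' processing notes, reads were aligned to mm10 (GRCm38) with GSNAP, and reads in genes were counted without strand by htseq-count of HTSeq 0.5.3p3. The columns carry no replicate numbers. They were placed in groups by the sample sheet supplied with the study, and 1 column without a group was not used. Gene symbols and positions came from GENCODE M21 (45229 of 46078 identifiers matched). Rows for 92 spike-ins and 5 summary rows were kept out of library sizes and tests. Counts were TMM-normalized and filtered by filterByExpr, and each pair of groups was fitted alone with edgeR 4.0.16 (quasi-likelihood test, R 4.3.3), two-sided, with an FDR threshold of 0.1 over all genes tested. The interaction used all 4 groups. The SE given with edgeR values is the absolute log2 fold change divided by the square root of the test's F statistic. It therefore restates that test. DESeq2 1.42.0 was the alternative tool. Other alternatives were the scaling, the filter, thinned counts, the set of libraries and leaving out each library. The edgeR fit of each pair of groups was tested on simulated counts with known changes, and the other steps were not. Genes are named as members, as the 2 most abundant tested genes of each list, as any list gene past the threshold, as overlapping a member, as Gfra2, or as the 3 genes most like a member by Pearson r. One gene that this rule names is not reported here. Sfpq, Meg3, Snhg8, Epb41l4aos, H19, Taf1c and Dkc1 were named after their values were seen, since DESeq2 called them.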

Additional observations from a re-analysis of the deposited data

Results flagged for a closer look

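In 3 of the 27 sets of 4 libraries examined (levels and ratios of the 5 transcripts by group), 1 library stood farther from the others than Dixon's 95% critical value for 4 values allows. For independent sets of normally distributed values chance alone gives about 1 in 20. Here the values were not put on a log scale and the sets share libraries and transcripts, so that rate is only a guide. Gm42418 in endosteal WT library A had 911 CPM, against 494 CPM in the next library (gap over range 0.897). The reads of CT010467.1 per read of Gm42418 were 1031 in endosteal library D labelled Gfra2-/-, against 396 in the next (0.834). The reads of Malat1 per read of Neat1 were 24.1 in the same library D, against 13.1 in the next (0.847).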

How the results depend on the processing

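No paired analysis was possible because no replicate numbers stand in the table's column names. Of 510 alternative values of the members' differences, 442 kept direction and side of the threshold, 21 lost the call, 18 gained it and 29 changed direction, 21 of them without scaling to the spike-ins. In the comparisons of compartments in WT, compartments in Gfra2-/-, genotypes in central HSCs, genotypes in endosteal HSCs and the interaction, DESeq2 called 208, 156, 382, 136 and 172 genes, with 2, 0, 3, 1 and 0 of the 5 transcripts. Between compartments in WT, scaling without the members and mitochondrial genes called 1 gene and 1 of the 5, no filter 58 and 2, at least 10 counts in every library 11 and 1, thinned counts 5 and 1, and all groups in one fit 22 and 1, and leaving out 1 library gave 0 to 6 genes and 0 to 1 of the 5. In central HSCs, spike-in scaling called 2 genes and 0 of the 5, no filter 134 and 3, at least 10 counts 29 and 2, thinned counts 14 and 3, the libraries with more spike-in 1 gene and 1 of the 5, those over 1500000 reads 0 and 0, an FDR of 0.05 0 and 0, and all groups in one fit 0 of the 5. Leaving out 1 library there gave 0 to 8 genes and 0 to 3 of the 5: 0 genes without any one of the 4 WT libraries or Gfra2-/- library A, and 1 without B. Spike-in scaling called 15 genes between compartments in Gfra2-/-, 6 between genotypes in endosteal HSCs, and 193 in the interaction, and all groups in one fit called 1 in endosteal HSCs.

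With scaling to the spike-ins the median change over all genes was, on the log2 scale, 1.58, -0.46, 1.75, -0.28 and -2.18 in the same order of fits. This scaling turned Malat1 (0.75), Neat1 (0.49) and Gm26917 (0.68) between compartments in WT, Gm26917 in central HSCs (0.66, and 1.496 as reads per spike-in read), Neat1 in endosteal HSCs (-0.74), and Malat1 (-1.47), Gm42418 (-2.05) and Gm26917 (-1.75) in the interaction. In central HSCs Malat1 turned with DESeq2 (-0.0402), its size factors in edgeR (-0.0400), thinned counts (-0.15) and the read limit (-0.18), and Neat1 with the read limit (-0.33). Neat1 turned in endosteal HSCs with thinned counts (-0.0256), and in the interaction with thinned counts (0.33), the read limit (0.36) and without the endosteal Gfra2-/- libraries B and D (0.16, chosen after seeing the data), where Malat1 turned with more spike-in only (-0.0839). Leaving out 1 library turned Neat1 between compartments in WT (-0.72 to 0.0109), Malat1 in central HSCs (-0.0472 to 0.18), Neat1 in endosteal HSCs (-0.14 to 0.26), and CT010467.1 (-0.50 to 0.27), Neat1 (-0.71 to 0.0277) and Malat1 (-0.0048 to 0.25) in the interaction. The causes were not tested, except that fewer libraries or another set of genes enter the fit where the alternative says so. Gm42418 passed between compartments in WT under 9 of 19 alternatives. The shallow central WT libraries limit Neat1 most, with 99 counts in the lowest.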
